A study of Mus musculus with 12 samples.

Results

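MicroRNAs of epididymal fat were compared between male C57BL/6J wild-type mice that met a high-fat diet only in utero (UT) and mice kept on a control diet (CD). The comparison used 6 of the 12 pooled RNA samples of the series, UT 1 to UT 3 and CD 1 to CD 3, chosen by their group labels, and 504 microRNA assays read by quantitative RT-PCR. In each group 12 mice were combined into 3 pools, and all mice were killed at 23 weeks. The high-fat diet held 45% of its energy as fat, 35% as carbohydrate and 20% as protein, and the control diet held 10%, 70% and 20%. UT mice received the high-fat diet through their dams from mating, and the diet they ate after birth follows from the group's definition as control diet and is not stated separately. Both sets of parents ate a standard breeding diet before mating. The remaining 6 pools came from mice on the high-fat diet from mating to weaning (UL) or from mating to 23 weeks (WL). They entered the estimate of the spread and 1 further comparison.

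The groups held 27 UT mice from 17 litters and 22 CD mice from 17 litters, of which 12 each were pooled. The sources used here do not say which mice or litters made up a pool, so a p-value measures the spread between pools, and pools of a group may share litters. Each pool averages several fat pads, and in such bulk RNA fewer cells of a type and less RNA per cell cannot be told apart.

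MicroRNAs are short RNAs that guide the silencing complex to messenger RNAs, mainly by pairing through the seed near their 5′ end, and so lower the output of many transcripts. A hairpin precursor yields a 5p and a 3p arm, of which one usually predominates. In fat, microRNAs are known to act on adipocyte formation, on insulin signalling and on the mTOR network that the title of the series names. Epididymal fat lies beside the testis and epididymis and also contains vessels, stromal cells, leukocytes and a mesothelial cover.

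The mature sequences of the microRNAs that carry the comparison are shown 5′ to 3′ from RefSeq (GRCm38.p6), with the seed, bases 2 to 8, in capitals. RefSeq sequences were matched for 393 of the 504 assays. The first set holds the 7 microRNAs that passed the test.
miR-184-5p: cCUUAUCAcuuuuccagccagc
miR-135b-3p: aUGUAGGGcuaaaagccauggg
miR-291b-5p: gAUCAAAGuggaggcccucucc
miR-291b-3p: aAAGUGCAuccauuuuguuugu
miR-676-3p: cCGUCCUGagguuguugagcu
miR-592-3p: uCAUCACGuggugacgcaacau
miR-758-5p: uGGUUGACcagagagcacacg
No seed occurs more than once among these 7 microRNAs. They lie at chr9:89802302-89802323 (miR-184-5p, minus strand), chr1:132198142-132198163 (miR-135b-3p, plus), chr7:3219494-3219515 and chr7:3219529-3219550 (miR-291b-5p and miR-291b-3p, plus), chrX:100381151-100381171 (miR-676-3p, plus), chr6:27936672-27936693 (miR-592-3p, minus) and chr12:109712823-109712843 (miR-758-5p, plus). Each stretch is an arm of the hairpin gene of the same name.

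The second set shows relatives that bear on the results: the near copy of miR-291b-5p, the let-7 relatives of miR-98-5p, and members of the miR-302 cluster.
miR-291a-5p: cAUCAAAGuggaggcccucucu
miR-98-5p: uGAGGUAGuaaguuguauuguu
let-7a-5p: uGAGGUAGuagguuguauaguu
miR-302b-5p: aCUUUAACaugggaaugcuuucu
miR-302c-5p: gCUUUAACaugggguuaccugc
miR-302d-5p: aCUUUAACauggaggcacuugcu
miR-291a-5p and miR-291b-5p differ at 2 of 22 positions, both outside the seed, and so do miR-98-5p and let-7a-5p. The sources used here do not say how far an assay separates such relatives.

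Each Ct was subtracted from the average Ct of its pool, taken over the 466 microRNAs with a value in every one of the 12 pools. This relative level is in cycles on the log2 scale, and a higher value means more template than the average assay. Mean Ct ran from 24.57 (UT 2) to 25.06 (UT 3) over the 6 pools, and single Cts from 15.06 to 36.69. CD pools correlated with each other at 0.969 to 0.978 over microRNAs and UT pools at 0.919 to 0.955. UT 2 lacked values for 14 microRNAs, more than the 3 to 6 of each other pool. Of the 504 microRNAs, 480 had values in all 6 pools, and 25 of the 37 missing values were in UT pools. Several fat-enriched microRNAs were abundant in every pool: let-7b-5p lay between 7.52 and 9.07, miR-26a-5p between 7.61 and 8.00, and miR-30c-5p between 5.65 and 7.05. Another fat-enriched microRNA, miR-107-3p, was not, and lay between -1.55 and 0.03.

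Each pool is centred on its own mean, so a shift common to most microRNAs would not show. On this scale most microRNAs were at similar levels after in utero high-fat exposure and on the control diet, and a few moved far. In limma's model over the 12 pools, 7 of 504 microRNAs passed a threshold of 0.05 on the Benjamini-Hochberg adjusted p, or 1.39%. The 6 that were higher in UT (1.19%) were miR-184-5p, miR-676-3p, miR-592-3p, miR-291b-3p, miR-291b-5p and miR-135b-3p. The 1 that was lower (0.198%) was miR-758-5p. Of these 7, miR-291b-5p and miR-135b-3p had under 3 values in a group. When only microRNAs with values in all 6 pools were tested, 1 passed. At an unadjusted p under 0.05 there were 51 of the 504, of which 32 were higher and 19 lower. Among the 480 microRNAs with values in all 6 pools, 304 (63.3%) differed by under 0.5 on the log2 scale, 231 had a difference above 0 and 249 below, and the median difference was -0.01.

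**Figure D1:**
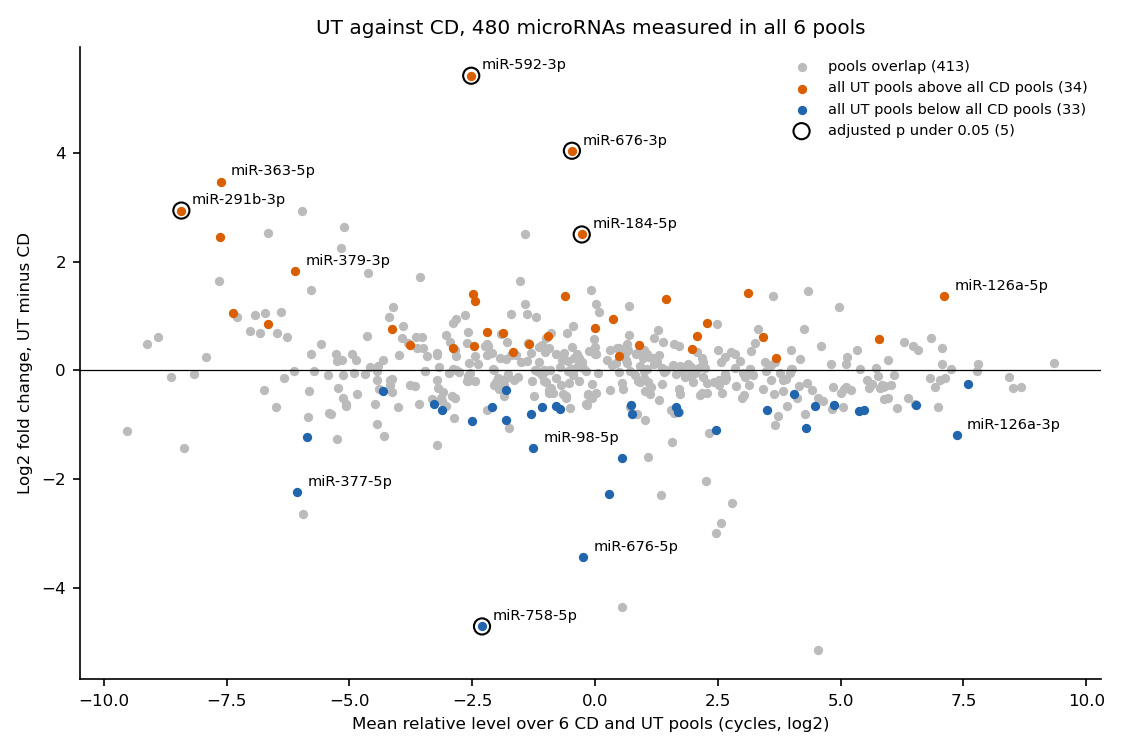
Log2 fold change of UT minus CD (vertical axis) against the mean relative level over the 6 pools (horizontal axis, cycles on the log2 scale) for the 480 microRNAs measured in all 6 pools; each point is 1 microRNA. Most points lie near 0, and 5 circled microRNAs passed an adjusted p of 0.05, none of them among the highest levels.

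The pools of the groups did not overlap for 67 of the 480 microRNAs. All 3 UT pools lay above all 3 CD pools for 34 (7.08%) and below them for 33 (6.88%). The median size of the difference among these 67 was 0.77 and the smallest was 0.23. UT pools spread more than CD pools: the SD within UT was the larger in 306 of 480 microRNAs, with a median of 0.53 against 0.36. The median standard error of a difference was 0.44.

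miR-184-5p was the most evenly measured of the microRNAs that rose. miR-184 is known as an abundant microRNA of the lens and cornea, and its 3p arm is the better studied; the 3p arm was not analysed here. The relative level of miR-184-5p was -1.28, -1.90 and -1.37 in the CD pools and 1.25, 0.88 and 0.82 in the UT pools. All UT pools lay above all CD pools, with a gap wider than the spread in either group. The difference was 2.50 (SE 0.43, 95% interval 1.56 to 3.44, adjusted p = 0.0165, limma), or 5.67-fold. Without CD 2, UT 1 or UT 3 the difference was 2.31, 2.37 or 2.58, and the adjusted p became 0.0731, 0.0828 or 0.0834 (limma). In the authors' deposited table the UT over CD ratio of miR-184-5p is 0.192, opposite in direction, because the deposited ratios grow with later cycles.

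The levels of miR-184-5p in the other dietary groups lay below those in UT. Its relative level was -0.67, -1.49 and -0.95 in the UL pools, and -1.21, -1.79 and -0.07 in the WL pools. Every UT pool lay above all 9 other pools, and WL 3 came next. UT exceeded the mean of UL and WL by 2.01 (SE 0.37, adjusted p = 0.0465, limma). No microRNA passed this contrast in 9 of the 12 fits that left out 1 pool, nor after quantile normalization or with neighbouring assays subtracted.

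**Figure D2:**
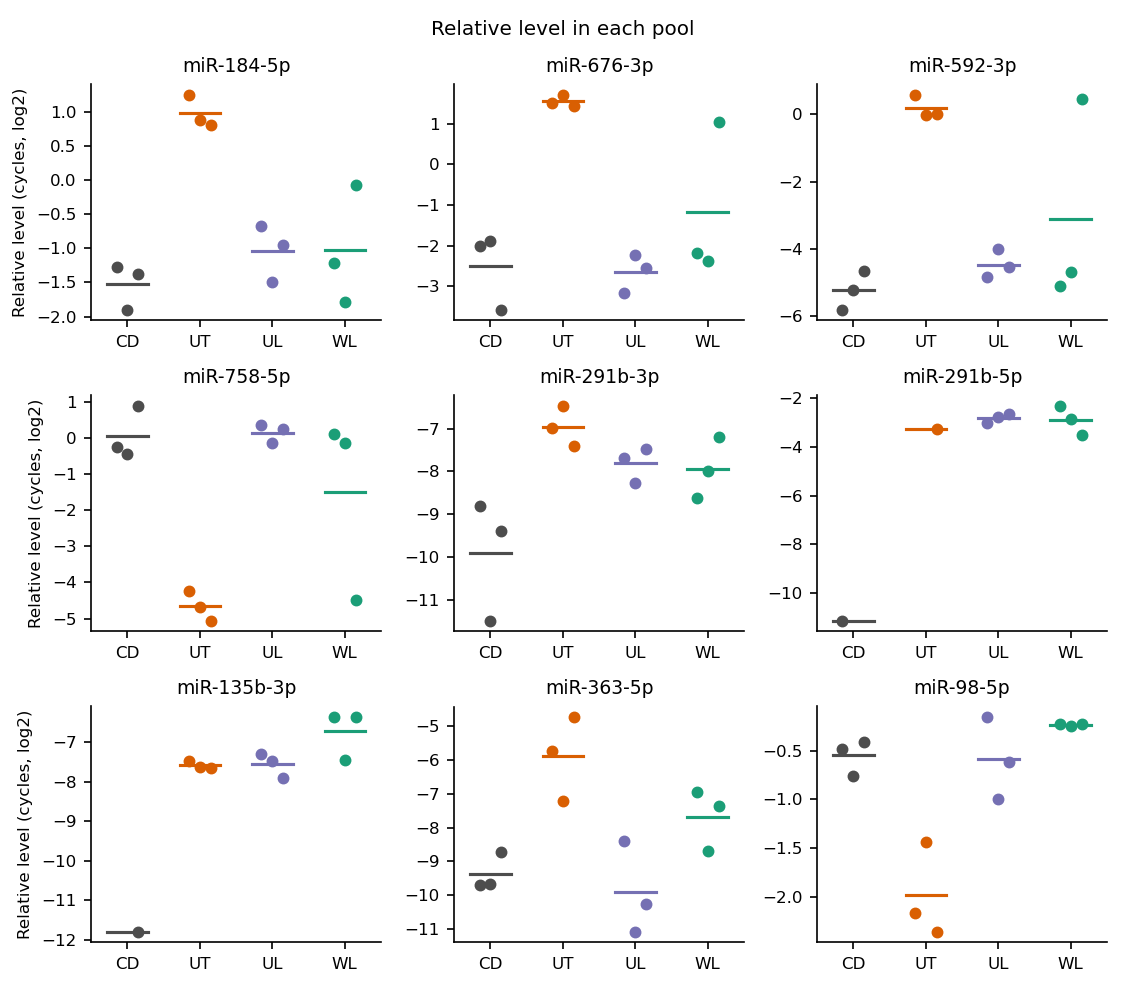
Relative level (vertical axis, cycles on the log2 scale) in each pool of the 4 groups for the 7 microRNAs that passed the test and for miR-363-5p and miR-98-5p; each point is 1 pool and the bar is the group mean. The UT values stand clear of the CD values in each panel, but miR-135b-3p rests on 1 CD pool and miR-291b-5p on 1 CD and 1 UT pool. WL 3 sits with the UT pools for miR-676-3p, miR-592-3p and miR-758-5p.

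miR-135b-3p was detected in all 3 UT pools and in 1 CD pool. Its level was -7.48, -7.63 and -7.66 in UT and -11.80 in CD 3, while CD 1 and CD 2 gave no value. The fitted difference of 4.21 (SE 0.52, adjusted p = 0.00397, limma) therefore dropped 2 CD pools. CD 3 was read at a Ct of 36.69, the latest Ct in the 6 pools, and the UL and WL pools were near the UT pools, with a difference of -0.44 for UT against their mean. The miR-135 family is known from WNT signalling. Its 5p arm was below 0: miR-135b-5p differed by -0.99 (adjusted p = 0.796) and miR-135a-5p by -1.59 (adjusted p = 0.612, limma), both with overlapping pools.

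Both arms of miR-291b passed the test. The gene belongs to the miR-290 to miR-295 cluster, which mouse embryonic stem cells express and which falls silent on differentiation. miR-291b-3p stood at -8.81, -11.48 and -9.39 in CD and at -6.98, -6.48 and -7.40 in UT. The UT pools lay above the CD pools, and CD 2 was the lowest of all. The difference was 2.94 (SE 0.62, adjusted p = 0.0423, limma). Mean Cts of 34.72 in CD and 31.71 in UT place this microRNA near the limit of detection. UT differed from the mean of UL and WL by 0.92 (adjusted p = 0.467, limma), and each CD pool lay below every UL and WL pool. UL and WL mice also met the high-fat diet in utero, so their levels do not show whether CD or UT moved.

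miR-291b-5p had a single value in each group, -11.12 in CD 1 and -3.28 in UT 3, and the model used those values alone. The difference was 7.84 (SE 0.67, adjusted p = 0.00266, limma). The 6 UL and WL pools, from mice also exposed in utero, lay between -3.51 and -2.34, near UT 3 and far above CD 1. With missing values set to a Ct of 40 the difference was 2.45 (adjusted p = 0.816, limma). The near copy miR-291a-5p was far more abundant, at 4.30, 5.04 and 4.91 in CD and 5.01, 4.54 and 5.03 in UT. It differed by 0.11 (adjusted p = 0.97, limma).

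The embryonic stem cell clusters were described as a list, the miR-290 to miR-295 cluster and the miR-302 and miR-367 cluster. Of 19 measured members 1 rose with values in all 6 pools, miR-291b-3p, and none fell. miR-291b-5p also passed, on 1 pool against 1. Of all 504 microRNAs, 1.19% passed as higher and 0.198% as lower. At an unadjusted p under 0.05 (limma) there were 8, miR-291b-5p among them and all higher, against 51 of all 504 microRNAs, of which 32 were higher. Of the 16 members with values in all 6 pools 14 had a difference above 0, with a median of 0.49 against -0.01 over all tested. Pools did not overlap for 3 of the 16, all upwards, beside 7.08% upwards and 6.88% downwards of all microRNAs. These were miR-291b-3p, miR-302b-5p (2.46, adjusted p = 0.0641) and miR-290a-5p (0.68, adjusted p = 0.435, limma). The members with the highest levels differed little: miR-291a-5p by 0.11, miR-302d-5p by 0.00 and miR-294-3p by 0.17.

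The large differences of miR-302c and miR-302d came from low values in CD 1 and CD 2. For miR-302b-5p, CD 3 was also below the UT pools, at -7.32 against -6.20, -6.27 and -6.74. miR-302c-3p stood at -7.21, -8.51 and -3.56 in CD and at -3.66, -3.38 and -4.36 in UT. miR-302d-3p stood at -8.32, -10.25 and -5.21 in CD and at -5.22, -4.68 and -6.29 in UT. For both, CD 3 lay among the UT pools and the groups overlapped. The median over the list's 16 members was 0.35 without CD 1 and 0.79 without CD 2.

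These assays also stand next to each other in the order of their accession numbers. The 7 assays from miR-291b-5p to miR-302d-3p follow each other without a gap, and all 7 had a difference above 0. The 10 nearest neighbours of miR-291b-3p had a median difference of 2.49, and those of miR-184-5p had 0.00. The neighbours of miR-184-5p include miR-592-3p (5.42) and miR-758-5p (-4.71), whose opposite signs a median can hide. Over all assays, the differences of neighbours correlated at 0.15, and those of assays 3 places apart at 0.28, a description over assays that share the same pools. With the neighbours' deviation subtracted in each pool, the median of the list was 0.24 and miR-291b-3p differed by 0.69. The part that the order of assays plays in these differences was not tested.

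**Figure D3:**
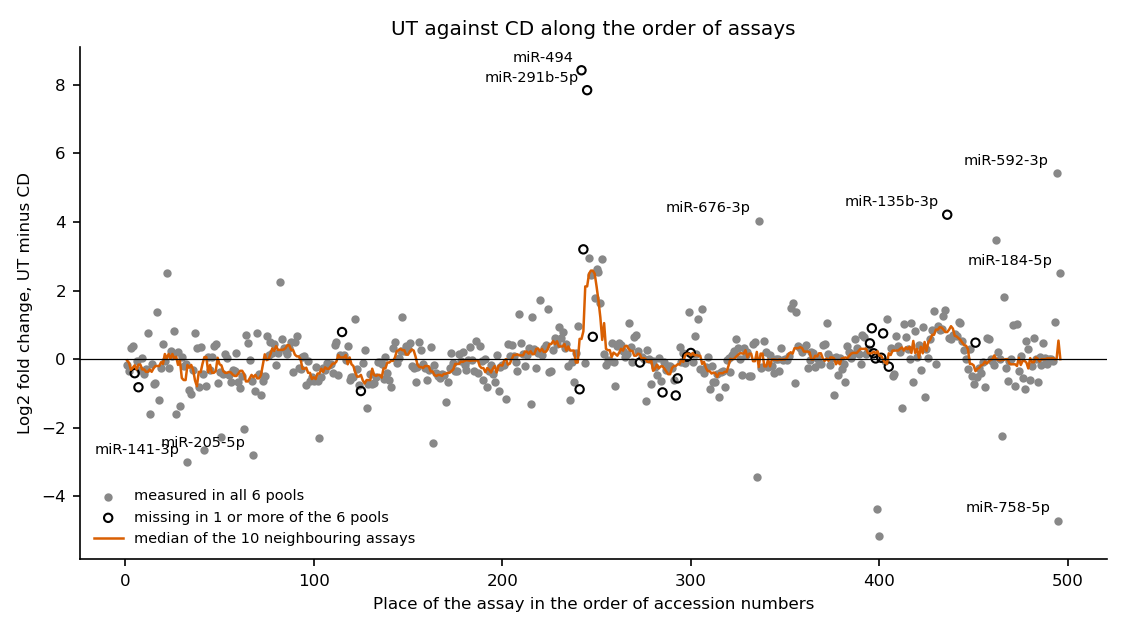
Log2 fold change of UT minus CD (vertical axis) along the order of accession numbers of the assays (horizontal axis, place in that order). Each point is 1 microRNA, open points lack a value in 1 or more of the 6 pools, and the line is the median of the 10 neighbouring assays. The line rises to 2.49 at miR-291b-3p, in the stretch that holds the miR-291b and miR-302 assays, and lies at 0.00 at miR-184-5p.

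The 3 remaining microRNAs that passed, miR-676-3p, miR-592-3p and miR-758-5p, each had a neighbouring assay that differed in the opposite direction. miR-676-3p stood at -2.00, -1.89 and -3.57 in CD and at 1.51, 1.70 and 1.44 in UT, a difference of 4.04 (SE 0.79, adjusted p = 0.0373, limma). Its opposite arm, miR-676-5p, stood at 1.57, 1.67 and 1.18 in CD and at -2.19, -2.44 and -1.28 in UT. It differed by -3.44 (adjusted p = 0.0763, limma). Neither assay's groups overlapped, and the level of each arm in UT was close to that of the other arm in CD.

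miR-592-3p and miR-758-5p showed the same form. They come from different hairpins on different chromosomes, miR-758 from the imprinted Dlk1-Dio3 cluster, and its 3p arm is known to target the cholesterol transporter ABCA1. miR-592-3p stood at -5.81, -5.22 and -4.66 in CD and at 0.57, -0.02 and 0.01 in UT, a difference of 5.42 (SE 1.12, adjusted p = 0.0402, limma). miR-758-5p stood at -0.25, -0.45 and 0.87 in CD and at -4.24, -4.67 and -5.06 in UT, a difference of -4.71 (SE 0.96, adjusted p = 0.0402, limma). Again UT and CD pools stood apart for each assay, and the UT values of each assay lay in or near the CD range of the other. The opposite arms did not move alike: miR-592-5p differed by 0.02 (adjusted p = 1.0) and miR-758-3p by -0.24 (adjusted p = 0.898, limma).

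Of 454 pairs of assays adjacent in accession order, 4 stood exchanged in this way, by a criterion chosen after the values were seen: a summed difference over 1.8 that falls under 0.5 of itself when the 2 assays are exchanged in UT. The summed difference went from 10.13 to 0.70 for miR-592-3p with miR-758-5p, and from 7.48 to 0.60 for the arms of miR-676. It went from 4.06 to 0.41 for miR-377-5p with miR-379-3p, and from 2.55 to 0.49 for the arms of miR-126a. Among assays 2 to 10 places apart, with 442 to 452 pairs at each distance, there were 2 such pairs in all. They were 1 at 4 places and 1 at 6 places.

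miR-377-5p and miR-379-3p both come from the Dlk1-Dio3 cluster. miR-377-5p stood at -4.83, -5.28 and -4.76 in CD and at -7.14, -7.70 and -6.74 in UT (-2.24, adjusted p = 0.0758, limma). miR-379-3p stood at -6.88, -7.47 and -6.71 in CD and at -4.50, -6.12 and -4.98 in UT (1.82, adjusted p = 0.333, limma). The groups of each did not overlap and the differences were opposite in sign.

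The arms of miR-126a, the endothelial microRNA of the Egfl7 gene, were the most abundant of the 4 pairs. miR-126a-5p stood at 6.36, 6.79 and 6.14 in CD and at 7.80, 7.56 and 8.02 in UT (1.36, adjusted p = 0.0766, limma). miR-126a-3p stood at 8.02, 8.49 and 7.34 in CD and at 6.01, 7.22 and 7.05 in UT (-1.19, adjusted p = 0.395, limma). The 3p arm was the higher assay in each CD pool and the 5p arm in each UT pool.

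WL 3 showed the order of the UT pools in all 4 pairs, and WL 1 and WL 2 did not. In WL 3, miR-592-3p stood at 0.46 and miR-758-5p at -4.48, miR-676-3p at 1.04 and miR-676-5p at -2.40. The exchange thus ran through pools of 2 diet groups. With the 4 pairs exchanged in the UT pools and WL 3, 3 microRNAs passed the test in place of 7, miR-676-3p differed by 0.52 (adjusted p = 0.829), and miR-758-5p by 0.13 (adjusted p = 0.946, limma). Whether the labels of these assays were exchanged or the microRNAs themselves changed was not tested. miR-184-5p follows miR-758-5p directly in accession order, and WL 3 was its highest pool outside UT, at -0.07.

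**Figure D4:**
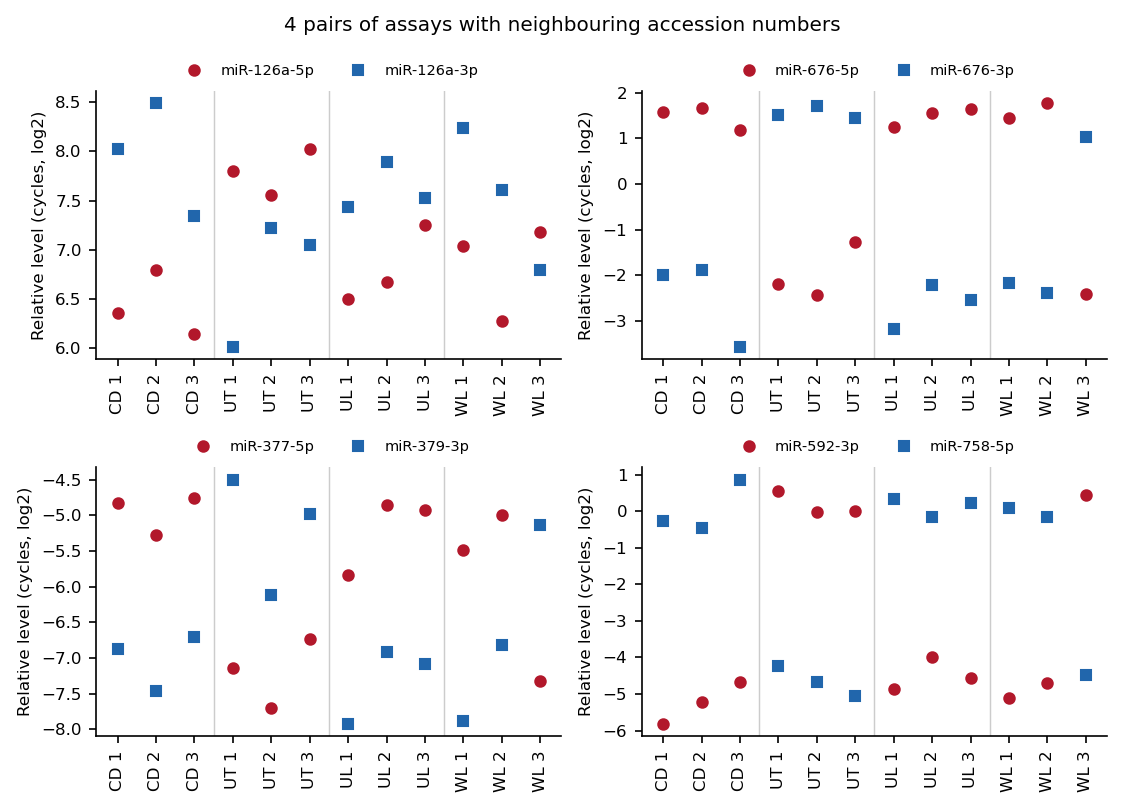
Relative level (vertical axis, cycles on the log2 scale) in each of the 12 pools (horizontal axis) of the 4 pairs of assays; round points are the first and square points the second assay of a pair. The assay that is the higher in the CD pools is the lower in UT 1, UT 2, UT 3 and WL 3.

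Below the threshold, miR-363-5p and miR-98-5p came nearest. miR-363-5p, from the X-linked paralog of the miR-17 to miR-92a cluster, stood at -9.69, -9.66 and -8.73 in CD and at -5.72, -7.22 and -4.73 in UT. The difference was 3.47 (SE 0.77, adjusted p = 0.0521, limma) with no overlap, and the 3p arm differed by 0.52 (adjusted p = 0.809, limma). Over the 17 measured members of the miR-17 to miR-92a cluster and its paralogs none passed the limma test, miR-363-5p and miR-20b-5p had an unadjusted p under 0.05, and the 16 members with values in all 6 pools had a median of 0.08.

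miR-98-5p carries the let-7 seed. It stood at -0.48, -0.76 and -0.41 in CD and at -2.16, -1.43 and -2.35 in UT, a difference of -1.43 (SE 0.33, adjusted p = 0.057, limma). All UT pools lay below all 9 other pools, and the difference against the mean of UL and WL was -1.57 (SE 0.28, adjusted p = 0.0465, limma). The opposite arm, miR-98-3p, differed by -1.11 (adjusted p = 0.612, limma) with overlapping pools.

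The let-7 guide strands are abundant in differentiated tissue and repress genes of growth and insulin signalling. None of the 9 members of the let-7 and miR-98 list passed the limma test, 1 (miR-98-5p) had an unadjusted p under 0.05, and all 9 had a difference below 0, with a median of -0.25. let-7a-5p, which differs from miR-98-5p at 2 positions, stood at 7.69, 7.78 and 7.68 in CD and at 7.51, 7.45 and 7.45 in UT. The groups did not overlap although the difference was only -0.25 (adjusted p = 0.81, limma). The other 7 overlapped and differed by -0.34 to -0.12. The sign depends on the scaling: with RNU-43 as reference the median was 0.50, beside 0.73 over all microRNAs. With neighbouring assays subtracted it was 0.02, beside 0.02 over all microRNAs.

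Other microRNAs among the 30 with the smallest p did not pass either. miR-351-3p, from the X-linked cluster with miR-322 and miR-503, stood at 2.34, 2.34 and 2.55 in CD and at 3.26, 3.75 and 4.48 in UT (1.42, adjusted p = 0.0758, limma). miR-329-5p, of the Dlk1-Dio3 cluster, differed by 1.41 (adjusted p = 0.0926, limma). miR-101a-3p, which is known to target MTOR, stood at 1.86, 1.46 and 0.72 in CD and at -0.07, 0.12 and -0.83 in UT (-1.61, adjusted p = 0.154, limma), with UT below all 9 other pools. In all of these the UT and CD pools stood apart. So they did, with smaller or less even differences, for miR-485-3p (0.95), miR-212-5p (1.05), miR-652-3p (-1.10) and miR-693-5p (-1.22), at adjusted p of 0.28 to 0.395 (limma). Pools overlapped for miR-295-3p (2.25), miR-302c-5p (1.79) and miR-153-3p (-2.64).

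Over the 466 microRNAs measured in all 12 pools, UT lay above all 9 other pools for 8 and below for 5. The 8 were miR-126a-5p, miR-184-5p, miR-290a-5p, miR-302b-5p, miR-495-3p, miR-676-3p, miR-687 and miR-1897-5p. The 5 were miR-98-5p, miR-101a-3p, miR-125a-5p, miR-142-5p and miR-196a-5p. Against the mean of UL and WL, 2 of 504 microRNAs passed the test (0.397%), miR-184-5p above and miR-98-5p below, with 63 at an unadjusted p under 0.05.

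The most abundant microRNAs differed little. None of the 10 with the highest mean level passed the limma test, 1 (miR-126a-3p) had an unadjusted p under 0.05, and 9 of the 10 differed by -0.32 to 0.14, the exception being miR-126a-3p. miR-21a-5p, which is induced in inflamed tissue, differed by 0.12 (adjusted p = 0.954), and miR-26a-5p, which promotes adipocyte differentiation, by -0.02 (adjusted p = 1.0, limma). The levels of abundant microRNAs nevertheless leaned downwards. In the upper quartile by level in UL and WL, 41 of 120 had a difference above 0 and the median was -0.21, with medians of -0.16, -0.17 and -0.24 for UT 1, UT 2 and UT 3. In the lowest quartile 64 of 120 were above 0 and the median was 0.13.

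The lists that follow are read against all microRNAs, of which 231 of 480 lay above 0 with a median of -0.01, pools stood apart upwards for 7.08% and downwards for 6.88%, and 51 of 504 had an unadjusted p under 0.05. Scaled to RNU-43, the medians below 0 of the adipogenic, mTOR, early-life, lipid, endothelial, thermogenic and miR-30 lists turned to between 0.23 and 0.60. All of these stayed below the median of all microRNAs on that scale, 0.73.

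Of the mTOR-targeting microRNAs, 0 of 24 passed the limma test, 2 had an unadjusted p under 0.05 (miR-101a-3p and miR-205-5p, both lower), and 8 of 24 had a difference above 0, with a median of -0.14, which was -0.02 without CD 2 and -0.24 without CD 3. The most abundant members were miR-21a-5p, miR-26a-5p and miR-16-5p, the last of which differed by 0.42 (adjusted p = 0.81, limma). In the family that targets MTOR directly, miR-99a-5p and miR-100-5p differed by -0.29 and -0.31 and miR-99b-5p by 0.77 (adjusted p = 0.658, limma).

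Of the pro-adipogenic microRNAs, 0 of 24 passed the limma test, 1 (miR-143-3p) had an unadjusted p under 0.05, 5 of 24 were above 0, and the median was -0.29. With neighbouring assays subtracted the median was -0.04 with 9 above 0, and without CD 3 or UT 1 it was -0.46 or -0.47. Without UT 2 there were 10 above 0. Pools did not overlap for 6 of the 24, 1 higher and 5 lower, beside 7.08% and 6.88% of all microRNAs. The lower ones were miR-103-3p (-0.72, adjusted p = 0.52), miR-143-3p (-1.06, adjusted p = 0.28), miR-30c-5p, miR-148a-3p and miR-204-5p (each -0.63, limma). miR-103-3p, which represses caveolin-1 and so insulin sensitivity, stood at 3.76, 3.92 and 3.91 in CD and at 2.77, 3.70 and 2.95 in UT. miR-143-3p, which promotes adipocyte differentiation and marks smooth muscle, stood at 5.11, 4.73 and 4.62 in CD and at 3.72, 4.15 and 3.40 in UT. The anti-adipogenic list had a median of -0.16 over 22 members, with 7 above 0, and one of 0.04 with neighbouring assays subtracted and near 0 without UT 2. None passed the limma test, and 1 (miR-344-3p) had an unadjusted p under 0.05.

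Of 16 measured microRNAs known from early-life nutrition in fat none passed the limma test and 3 had an unadjusted p under 0.05, both arms of miR-126a and miR-143-3p. Of the 15 with values in all 6 pools 2 lay above 0, the median was -0.51, and pools stood apart upwards for 2 and downwards for 4, beside 7.08% and 6.88% of all microRNAs. The median was -0.24 without UT 2 and -0.23 with neighbouring assays subtracted, with 4 above 0 in each case. miR-483, which is known to rise in fat after a low-protein maternal diet, stood at 0.23, 0.41 and 0.41 in CD and at 0.47, 0.86 and 0.49 in UT. Its difference was 0.26 (adjusted p = 0.837, limma) with no overlap. Of the 17 measured members of the lipid and insulin signalling list 1 fell, miR-758-5p, of which the exchanged pair is described above. Of all 504 microRNAs, 0.198% fell. At an unadjusted p under 0.05 (limma) there were 3 on the list, miR-143-3p, miR-126a-3p and miR-758-5p, all lower. The list's 16 members with values in all 6 pools had a median of -0.36, with 3 above 0. That median was -0.19 without UT 2 and -0.15 with neighbouring assays subtracted. Pools stood apart upwards for 0 and downwards for 5 of the 16, beside 7.08% and 6.88% of all microRNAs. The 5 include miR-758-5p and miR-126a-3p of the exchanged pairs.

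**Figure D5:**
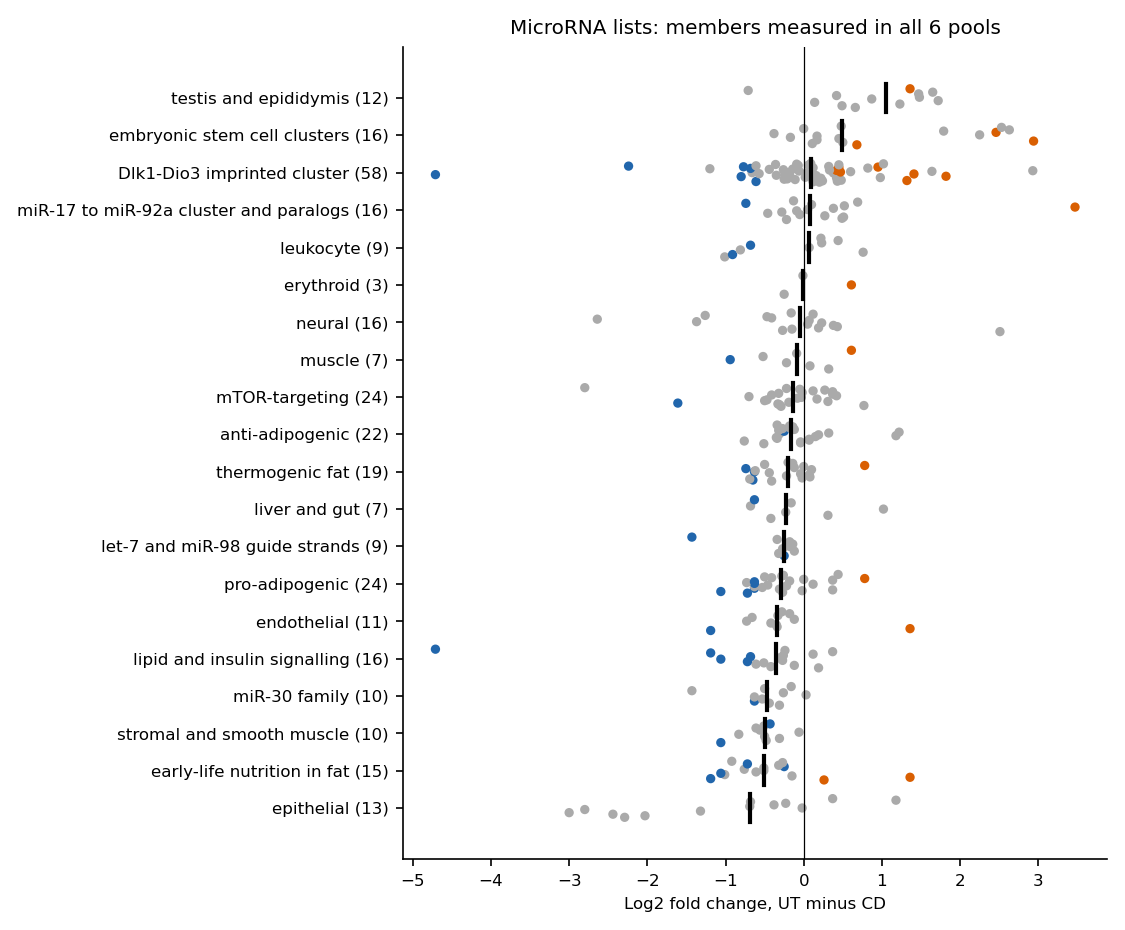
Log2 fold change of UT minus CD (horizontal axis) of the members of 20 microRNA lists that have values in all 6 pools (their number in parentheses); each point is 1 microRNA, orange where all UT pools lay above all CD pools, blue where all lay below, and the bar is the median. Medians run from -0.69 (epithelial) to 1.05 (testis and epididymis), and the grey points of both of these lists are assays whose pools overlap.

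Markers of other cell types in the fat pad were read beside these values. miR-205-5p and the miR-200 family, both markers of epithelium, were mostly high in CD 1 and CD 3 and low in UT 1 and UT 3. miR-205-5p stood at 5.20, 1.92 and 4.80 in CD and at 0.24, 2.84 and 0.42 in UT (-2.80, adjusted p = 0.28, limma). miR-141-3p stood at 5.60, 2.22 and 4.07 in CD and at -0.41, 3.33 and -0.02 in UT (-3.00, adjusted p = 0.435, limma). CD 2 and UT 2 overlapped in both, and the groups were not set apart.

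The mean level over the epithelial list was 2.40, 0.94 and 2.18 in CD and 0.27, 1.01 and 0.94 in UT. Of its 14 measured members none passed the limma test, 4 had an unadjusted p under 0.05, all lower, and none was without overlap. Of the 13 with values in all 6 pools 2 lay above 0, with a median of -0.69. The median was -1.27 without CD 2 and -1.47 without UT 3. With RNU-43 as reference it was 0.05, beside 0.73 over all microRNAs.

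The testis and epididymis list ran the other way. Of 12 members none passed the limma test, 2 (miR-463 and miR-743a-3p) had an unadjusted p under 0.05, 11 lay above 0, and the median was 1.05. The mean level over the list was -1.42, -0.57 and -1.56 in CD and 0.19, 0.21 and -1.26 in UT. UT 1 and UT 2 stood above the CD pools and UT 3 within them, and the median was 1.62 without UT 3 and 0.66 without UT 2. miR-743a-3p, of the X-linked germ cell cluster, was the 1 member without overlap (1.36, adjusted p = 0.435, limma). miR-742-3p, the most abundant member, differed by -0.71 (adjusted p = 0.612, limma). Their part in the differences of other microRNAs was not tested.

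Stromal and smooth muscle microRNAs had a median of -0.50, and all 10 with values in all 6 pools lay below 0, although none passed the limma test and pools stood apart for 2, miR-143-3p and miR-152-3p. With RNU-43 as reference that median was 0.24, beside 0.73 over all microRNAs, and with neighbouring assays subtracted it was -0.25. Leukocyte microRNAs had a median of 0.07, with 5 of 9 above 0, and the median was -0.26 without CD 1 and -0.06 without UT 3. miR-142-5p (-0.91) and miR-223-3p (-0.68) were lower without overlap, and miR-142-3p (-1.01) and miR-150-5p (-0.81) lay below 0 with overlap. The 5 above 0 all overlapped: miR-146a-5p (0.76), miR-181a-5p (0.44), miR-342-3p (0.23), miR-181b-5p (0.22) and miR-155-5p (0.07). The endothelial list had a median of -0.34 over 11 members (-0.55 without UT 3), and its 2 members without overlap were the arms of miR-126a. Muscle, erythroid, liver and gut, and neural lists had medians of -0.09, -0.01, -0.23 and -0.05, and none of their members passed. The thermogenic list had a median of -0.20 and the miR-30 family one of -0.47, again with no member past the test. With neighbouring assays subtracted these were 0.05 and -0.08. Without UT 3 they were -0.07 and -0.29, and the thermogenic median was -0.08 without CD 2 and -0.37 without UT 1. At an unadjusted p under 0.05 (limma) there were 2 endothelial members, 1 each on the stromal, leukocyte and neural lists, and 0 on the muscle, erythroid, liver and gut, thermogenic and miR-30 lists.

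The Dlk1-Dio3 imprinted cluster, a maternally expressed array of hairpins, had 1 of 59 measured members past the test, beside 7 of all 504 microRNAs (1.39%). It was miR-758-5p, of which the exchanged pair is described above. At an unadjusted p under 0.05 (limma) there were 10, of which 8 were higher, against 51 of all 504 microRNAs, of which 32 were higher. The 10 include miR-758-5p, miR-377-5p and miR-379-3p of the exchanged pairs, and miR-494, which had no value in UT 1 or UT 2. Its 58 members with values in all 6 pools had a median of 0.09, with 34 above 0, and the median was -0.06 with median scaling. Pools stood apart upwards for 7 and downwards for 6 of the 58, beside 7.08% and 6.88% of all microRNAs, among them miR-377-5p and miR-379-3p. The abundant members miR-667-3p, miR-770-3p and miR-341-3p did not pass.

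Members that share a seed were set side by side where at least 3 had values in all 6 pools, which gave 14 seed groups. The 4 microRNAs with the stem cell seed AAGUGCU, miR-291a-3p, miR-294-3p, miR-295-3p and miR-302d-3p, differed by 0.17 to 2.53 with a median of 1.37, and pools overlapped for each. The 3 with seed CUUUAAC, the 5p arms of miR-302b, miR-302c and miR-302d, differed by 2.46, 1.79 and 0.00. The 3 with seed CAGUGCA, miR-148a-3p, miR-148b-3p and miR-152-3p, differed by -0.81 to -0.43. miR-350-5p, which shares the seed AAGUGCA with miR-291b-3p, differed by 1.27 (adjusted p = 0.701, limma) with no overlap. None of the 14 seed groups had a member past the test.

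Both arms had values in all 6 pools for 89 hairpins. Their differences had the same sign in 52 and opposite signs in 37, and the median gap between the arms was 0.51. The gap was 2 or more in 7 hairpins: miR-9, miR-126a, miR-302d, miR-363, miR-592, miR-676 and miR-758. Both arms of miR-126a and miR-676, and 1 arm each of miR-592 and miR-758, belong to the exchanged pairs described above. In miR-302d the 3p arm was low in CD 1 and CD 2. In miR-9 the gap came from 1 pool, since miR-9-5p stood at 3.98 in UT 3 and between -3.36 and -1.75 in the other 5 pools. The less abundant arm, by its later Ct, lay above 0 in 49 hairpins, and the more abundant arm lay below 0 in 57.

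Some of the large differences that did not pass rested on single pools, unlike those of miR-363-5p and miR-676-5p above. The largest was that of miR-494, 8.42 (adjusted p = 0.32, limma), which stood at -0.31, -9.25 and -9.48 in CD and at 2.07 in UT 3, with no value in UT 1 or UT 2. All 6 UL and WL pools had miR-494 at 4.83 or higher. Among microRNAs with values in all 6 pools, miR-1906 and miR-1892, chosen after their values were seen, differed by -5.15 (adjusted p = 0.576) and -4.36 (adjusted p = 0.612, limma). miR-1906 stood at -6.89 in UT 2 and between 5.66 and 7.38 in the other 5 pools. miR-1892 stood at -10.59 in UT 2 and between 2.43 and 3.04 in the others. UT 2 also lacked values for miR-1895, miR-1896, miR-1899, miR-1900, miR-1903 and miR-1904, which other UT pools had.

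The 2 reference RNAs did not move alike. RNU-43 stood at 7.73, 7.13 and 7.59 in CD and at 6.96, 6.89 and 6.37 in UT, a difference of -0.74 without overlap (exact permutation test, two-sided, p = 0.1, the smallest that 3 against 3 allows). U6-snRNA stood at 9.40, 9.68 and 9.59 in CD and at 9.52 and 9.67 in UT 2 and UT 3, with no value in UT 1. Scaled to RNU-43, the median of all microRNAs shifted to 0.73, 12 microRNAs were higher and 0 lower, and pools stood apart upwards for 134 and downwards for 5. Directions given for small differences therefore hold relative to the mean of the measured microRNAs.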

How the data were processed

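Epididymal fat RNA from 4 groups of 3 pools was read by quantitative RT-PCR. Per the file headers, the authors deposited Ct values before normalization and normalized values as ratios. In each sample the deposited ratio, on a log2 scale, followed Ct with a fixed offset, departing from it by at most 0.0053, so it grows with Ct, and the results use Ct. The sources used here name no PCR platform or threshold rule. Per the labels' protocols, RNA was extracted with a miRNeasy kit.

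Of 507 rows 1 repeated another and was dropped, leaving 504 microRNAs and 2 reference RNAs. The level was the sample's mean Ct over 466 microRNAs measured in all 12 samples, minus Ct. A filter of Ct under 35 in at least 3 samples removed none. Levels were fitted with limma 3.58.1 (R 4.3.3; lmFit, eBayes; prior degrees of freedom 3.36) in 1 model of 4 groups, two-sided, with Benjamini-Hochberg adjustment over 504 microRNAs and a threshold of 0.05. Missing values were left missing. The fit was tested on simulated data. The number of pools limits the precision, and counting error cannot be had from Ct.

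The microRNAs and lists were chosen with earlier results of these data known. Named are all microRNAs past the threshold, up to 30 by smallest p with values in all 6 pools, their opposite arms, the 3 highest members of each list, the 10 highest microRNAs, incomplete ones, and those sharing a seed with a called one. Lists are described by counts and medians, read against those of all microRNAs, with no test of the list. Alternatives covered scaling, the microRNAs tested, missing and late values, the test, the replicate block, exchanged assay pairs, neighbouring assays and leaving out each sample.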

Additional observations from a re-analysis of the deposited data

Results flagged for a closer look

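In 2 microRNAs the in utero group differed from the groups whose high-fat diet lasted longer. miR-184-5p was higher in UT than the mean of UL and WL by 2.01 (SE 0.37, adjusted p = 0.0465, limma), in 3 of 3 UT pools against all 6 others. miR-98-5p was lower by the same contrast, with a difference of -1.57 (SE 0.28, adjusted p = 0.0465, limma), again in 3 of 3 pools. In 9 of the 12 fits that left out 1 pool neither passed, since 0 microRNAs passed the contrast (46 to 68 at an unadjusted p under 0.05, limma), and without WL 3 there were 11.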

How the results depend on the processing

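The number of microRNAs past the threshold in UT against CD, 7, changed with most settings. It was 4 with the replicate block, which did not follow a pairing in the data (correlations of deviations between same-numbered pools were -0.05, 0.10 and -0.02), 12 scaled to RNU-43, 2 with missing values set to Ct 40, 1 with microRNAs measured in all 12 samples or in all 6 pools, 2 with Ct under 30 in all 6 pools, 0 in an ordinary linear model (44 at an unadjusted p under 0.05), 3 with 2 assay pairs exchanged, 3 with 4 pairs exchanged (chosen after seeing the data) and 4 with neighbouring assays subtracted. Leaving out 1 pool gave 1 (without UT 3) to 10 (without WL 2 or WL 3). miR-184-5p kept its call in 25 of 29 alternatives, with differences of 2.31 to 3.24 and an adjusted p of at most 0.0834 (limma). The calls of miR-135b-3p and miR-291b-5p have no fit without the lone CD pool, or for miR-291b-5p the lone UT pool, that gave them a value, so their alternatives show nothing about stability. The call was kept by miR-676-3p in 12 of 29, by miR-592-3p and miR-758-5p in 11 of 28 each and by miR-291b-3p in 6 of 28. miR-758-5p turned to 0.13 with the pairs exchanged.

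Against the mean of UL and WL, 2 passed. The count was 3 with the replicate block, 1 with median scaling, 7 scaled to U6-snRNA, 0 after quantile normalization, 1 from the deposited ratios, 0 with missing values at Ct 40, 0 in the ordinary linear model and 0 with neighbours subtracted; at an unadjusted p under 0.05 these counts of 0 stood at 66, 62, 62 and 72. Leaving out 1 pool gave 0 to 11 (without WL 3). Pools did not overlap for 67 microRNAs, for 139 scaled to RNU-43, for 121 scaled to U6-snRNA (which drops UT 1), and for 104 to 141 without 1 pool, where fewer pools make separation easier. The causes of the other changes were not tested. Late Cts, above all for miR-291b and miR-135b-3p, limit what these pools can show.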
